A study of Mus musculus with 6 samples.

Results

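A set of 10 receptor genes for cytokines of the myeloid lineages was followed in megakaryocyte-erythroid progenitors, the bone marrow cells from which erythrocytes and platelets descend. They were Csf1r, Csf2ra, Csf2rb, Csf2rb2, Csf3r, Il3ra, Il6ra, Il6st, Flt3 and Il1r1, taken by symbol from a table of 55487 genes whose identifiers were matched to the GENCODE M21 annotation. All mice were wild type, of strain C57BL/6 and 8 weeks old, and RNA of the sorted cells was sequenced in bulk after capture on oligo(dT) beads. The groups were 3 control libraries (controls 1 to 3) and 3 libraries of animals after a 6 h fast (fasted 1 to 3), made to ask how fasting acts on the formation of red blood cells. The labels give neither the sort gate nor whether a library is 1 mouse or a pool, so the p-values measure the spread between these libraries only.

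Each of these receptors passes a cytokine signal across the cell surface. Csf3r binds G-CSF and drives the making of neutrophils. Csf2ra and Il3ra are the ligand-specific alpha chains for GM-CSF and IL-3, which signal through the common beta chain Csf2rb, while mice also carry Csf2rb2, a beta chain used by the IL-3 receptor alone. Csf1r and Flt3 are receptor tyrosine kinases, the former for CSF-1 and IL-34 in monocytes and macrophages, the latter for FLT3 ligand in multipotent, lymphoid and dendritic progenitors. Il6ra binds IL-6 and pairs with Il6st (gp130), the signalling chain of the whole IL-6 family, and Il1r1 is the signalling receptor of IL-1. As progenitors commit to the erythroid and megakaryocyte branches, most of these receptors are lost, and in the erythroid branch Epor carries the main cytokine signal.

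Gene counts per library ranged from 22445970 to 30246110 in the control group and from 12797144 to 18225191 in the fasted group. Counts in 1438 odorant and vomeronasal receptor genes, which are silent in blood cells, gave a background of 8.98 to 14.7 counts per kilobase in the controls against 14.2 to 16.0 after fasting. After scaling to CPM, counts relative to library size, this was 0.32, 0.557 and 0.743 CPM per kilobase in controls 1, 2 and 3 against 1.24, 1.02 and 1.12 in fasted 1, 2 and 3, so the background was higher in every fasted library. Fold changes were therefore scaled and tested over the 10641 genes whose mean count was at or above 5 times the background, which 7 of the 10 receptor genes were. Il3ra, Il6st and Csf2rb2 lay below it, at 3.95, 3.95 and 2.43 times the background.

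The erythroid identity named in the labels was present in all 6 libraries. The summed level of 11 erythroid markers, Klf1, Gata1 and the carbonic anhydrase genes Car1 and Car2 among them, was 4380 to 7540 CPM in the controls against 5970 to 9200 CPM after fasting. RNA typical of granulocyte-monocyte progenitors was there as well. The sum of 10 such markers, of which all 10 were above 5 times the background, was 4400, 12300 and 19000 CPM in controls 1, 2 and 3 against 4800, 3050 and 1250 CPM in fasted 1, 2 and 3. Mpo alone, the myeloperoxidase gene of primary granules, had 2580 to 10900 CPM in the controls against 572 to 2730 CPM after fasting. In bulk RNA, fewer cells of a type and less RNA per cell cannot be told apart.

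Per exonic length, Flt3 and Csf3r had the highest levels of the 10 receptors. Flt3 stood at 35.3 CPM per kilobase ± 13.6 and Csf3r at 23.3 ± 9.79 (SD, n = 6 libraries). Their order was not the same everywhere, with Flt3 above Csf3r in 4 of 6 libraries. Csf2ra followed at 15.5 ± 6.26, Csf1r at 10.3 ± 3.82 and Csf2rb at 6.54 ± 3.00 CPM per kilobase (SD, n = 6). Csf3r was above Csf2ra, Csf2ra above Csf1r, and Csf1r above Csf2rb in each of the 6 libraries, although their SDs overlap.

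The other receptors had lower means. Il1r1 had 4.20 ± 1.11, Il6ra 4.03 ± 1.21, Il3ra 2.96 ± 0.688 and Il6st 2.90 ± 0.385 CPM per kilobase (SD, n = 6), and among these 4 no gene stood above the next in all 6 libraries. Csf2rb was above Il1r1 in 5 of 6 libraries, the exception being fasted 3 with 3.57 against 3.79 CPM per kilobase, and after fasting their means were 5.01 ± 1.43 and 4.79 ± 0.926 (SD, n = 3). Csf2rb2 was the lowest at 1.87 ± 0.46 CPM per kilobase (SD, n = 6) and lay below Il6st in each of the 6 libraries. It was at 1.74 to 3.73 times the background of the same library.

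**Figure D1:**
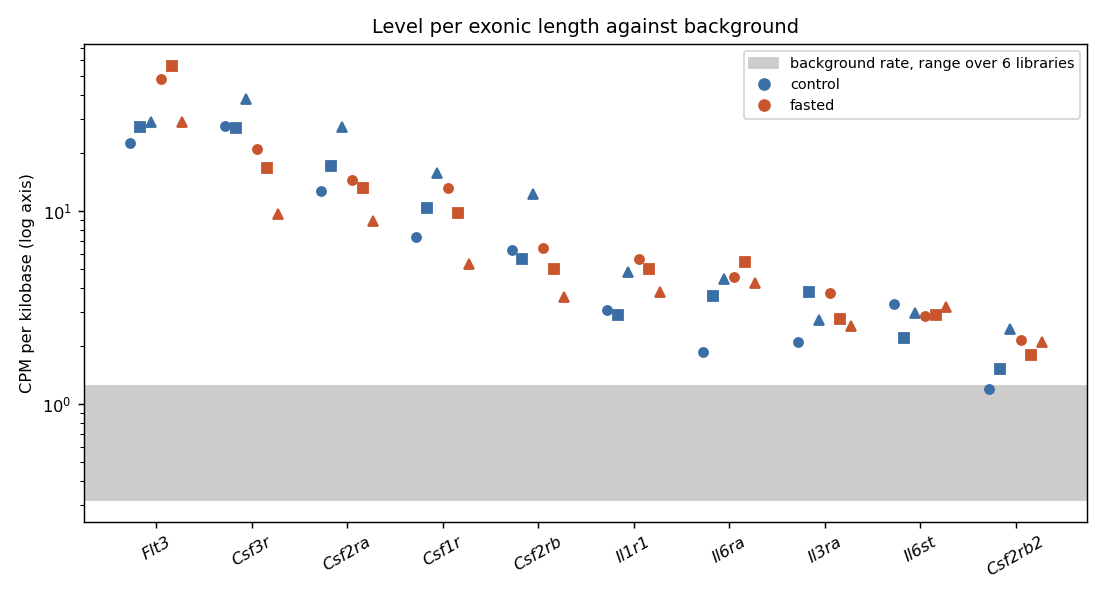
Level of each receptor gene per exonic length (CPM per kilobase, log axis), with 1 point per library (circle, square and triangle for libraries 1, 2 and 3 of each group, blue control, orange fasted). The grey band is the range of the background over the 6 libraries, 0.32 to 1.24 CPM per kilobase; Flt3 and Csf3r lie farthest above it, and the lowest Csf2rb2 point, 1.20 in control 1, lies inside it although the background of that library was 0.32.

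Csf3r was lower in the fasted libraries. Csf3r (ENSMUSG00000028859.14, GRCm38 chromosome 4, 126024550 to 126044440, plus strand) had 2774, 2301 and 2709 counts in controls 1, 2 and 3 against 869, 943 and 464 counts in fasted 1, 2 and 3. Scaled, these were 98.9, 97.5 and 137 CPM in the controls against 75.5, 60.1 and 35.0 CPM after fasting. All 3 fasted libraries lay below all 3 control libraries, and fasted 3 was the lowest. The mean was 111 CPM ± 22.4 in the controls against 56.9 CPM ± 20.5 after fasting (SD, n = 3 each). This gave a log2 fold change of -0.97 (SE 0.27, 95% interval -1.59 to -0.35), with an unadjusted p of 0.0067 and an adjusted p of 0.151 in edgeR's quasi-likelihood test.

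Csf2ra, the GM-CSF receptor alpha chain (ENSMUSG00000059326.7, chromosome 19, 61223957 to 61228429, minus strand), had 36.3, 48.7 and 77.8 CPM in the controls against 41.3, 37.5 and 25.5 CPM after fasting. The groups overlapped, because control 1 lay below both fasted 1 and 2. Its log2 fold change was -0.64 (SE 0.29, 95% interval -1.31 to 0.02), with an edgeR adjusted p of 0.267, and it was -0.31 without control 3. Csf2rb, the common beta chain (ENSMUSG00000071713.6, chromosome 15, 78325752 to 78353847, plus strand), had 45.7, 41.2 and 89.5 CPM in the controls against 46.8, 36.6 and 26.0 CPM after fasting. The groups overlapped, with fasted 1 above controls 1 and 2, and control 3 was the highest by a wide margin. Its log2 fold change was -0.69 (SE 0.33, 95% interval -1.45 to 0.07), with an edgeR adjusted p of 0.287, and it was -0.28 without control 3. The level of Csf2rb relative to Csf2ra, both per exonic length, was 0.496, 0.333 and 0.454 in the controls against 0.447, 0.385 and 0.403 after fasting, which are overlapping ranges; this ratio and the others between receptors were chosen after their values were seen.

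Il3ra, the IL-3 receptor alpha chain (ENSMUSG00000068758.8, chromosome 14, 14346275 to 14356011, plus strand), was low, with 175, 266 and 161 counts in the controls against 129, 129 and 100 counts after fasting. This was 6.24, 11.3 and 8.14 CPM in the controls against 11.2, 8.23 and 7.54 CPM after fasting, which overlap. Scaled alike and fitted with all 36508 genes kept by the filter on low counts, its log2 fold change was 0.07 (SE 0.34, 95% interval -0.64 to 0.79, edgeR adjusted p 0.875).

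Csf2rb2 (ENSMUSG00000071714.7, chromosome 15, 78282507 to 78305721, minus strand) lies beside Csf2rb and is its near copy. The coding sequences, 2688 bases in Csf2rb and 2634 in Csf2rb2 in GENCODE M21, were 95.2% identical over 2628 aligned bases. The stretch of 120 coding bases with the most differences, 22, is shown because it is where reads of both genes are easiest to tell apart. It covers coding bases 309 to 428 of Csf2rb and 312 to 431 of Csf2rb2, and capitals mark the bases that differ.
Csf2rb: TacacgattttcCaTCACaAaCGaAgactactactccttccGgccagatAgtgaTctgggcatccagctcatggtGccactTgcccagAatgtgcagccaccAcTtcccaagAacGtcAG
Csf2rb2: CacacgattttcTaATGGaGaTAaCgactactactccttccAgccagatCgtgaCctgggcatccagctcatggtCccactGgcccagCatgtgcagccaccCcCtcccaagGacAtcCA
Elsewhere the copies run together for longer. Of all stretches of 50 coding bases in Csf2rb, 26.0% were found unchanged in Csf2rb2, and of stretches of 100 bases 11%. How the counting handled reads that fit both genes is not given in the sources used here, so both genes' counts are uncertain to that extent.

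Csf2rb2 had 159, 170 and 230 counts in the controls against 117, 134 and 133 counts after fasting, or 5.67, 7.20 and 11.6 CPM against 10.2, 8.54 and 10.0 CPM. In the fit of all 36508 genes its log2 fold change was 0.23 (SE 0.34, 95% interval -0.49 to 0.96, edgeR adjusted p 0.601). Its share of the beta chain RNA, Csf2rb2 divided by Csf2rb2 plus Csf2rb with both per length, does not depend on scaling. The share was 16.0, 21.2 and 16.6% in the controls against 25.0, 26.4 and 37.2% after fasting, without overlap (17.9% ± 2.82 and 29.5% ± 6.66, SD, n = 3 each, two-sided exact permutation p = 0.1, the smallest that 3 against 3 libraries allow). With the background taken off both genes the share was 12.8, 15.9 and 12.9% in the controls against 14.9, 16.4 and 28.9% after fasting, which overlap (exact permutation p = 0.2). Fasted 3 then stood alone.

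Csf1r, the CSF-1 receptor (ENSMUSG00000024621.16, chromosome 18, 61100598 to 61132149, plus strand), varied as much within the groups as between them. It had 1188, 1400 and 1804 counts in the controls against 880, 885 and 405 counts after fasting. Scaled, these were 42.3, 59.3 and 91.2 CPM in the controls against 76.5, 56.4 and 30.5 CPM after fasting. The lowest and the highest of the control libraries thus enclosed fasted 1 and 2. The log2 fold change was -0.24 (SE 0.38, 95% interval -1.12 to 0.64, edgeR adjusted p 0.747), and it was 0.08 without control 3 and 0.05 without fasted 3. By gene span, introns included, 873 bases of Csf1r overlap Hmgxb3 on the other strand, which had 655 to 1655 counts per library. Shared exonic bases were not counted, and whether counting used strand is not given in the sources used here.

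Flt3 went the other way from Csf3r. Flt3 (ENSMUSG00000042817.15, chromosome 5, 147330741 to 147400489, minus strand) had 3905, 3979 and 3513 counts in the controls against 3421, 5463 and 2372 counts after fasting. Scaled, these were 139, 169 and 178 CPM in the controls against 297, 348 and 179 CPM after fasting. Fasted 1 and 2 stood far above all controls, while fasted 3 was level with control 3. The mean was 162 CPM ± 20.0 in the controls against 275 CPM ± 87.0 after fasting (SD, n = 3 each). This gave a log2 fold change of 0.76 (SE 0.23, 95% interval 0.25 to 1.28), with an unadjusted p of 0.00895 and an edgeR adjusted p of 0.155. By gene span, introns included, 936 bases of Flt3 overlap the antisense gene Gm26597, which had 118 to 244 counts per library.

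The IL-6 receptor chains and the IL-1 receptor showed smaller differences. Il6ra (ENSMUSG00000027947.11, chromosome 3, 89864059 to 89913196, minus strand) had 16.1, 31.2 and 38.7 CPM in the controls against 39.2, 46.9 and 36.7 CPM after fasting. Control 1 was the lowest by a wide margin, and control 3 lay above fasted 3. The log2 fold change was 0.52 (SE 0.30, 95% interval -0.15 to 1.19, edgeR adjusted p 0.355), and it was 0.23 without control 1. Il6ra was at 5.13 times the background on average and at 3.67 to 5.33 times in the fasted libraries, where the background itself was higher.

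Il6st (ENSMUSG00000021756.12, chromosome 13, 112464070 to 112510086, plus strand) was the steadiest of the 10, with 36.5, 24.4 and 33.0 CPM in the controls against 31.6, 32.1 and 35.3 CPM after fasting. Its highest library was 1.5 times its lowest, and in the fit of all 36508 genes it had a log2 fold change of 0.08 (SE 0.21, 95% interval -0.36 to 0.52, edgeR adjusted p 0.779). Il6st relative to Il6ra, both per length, was 1.77 in control 1 and between 0.533 and 0.75 in the other 5 libraries. Il1r1 (ENSMUSG00000026072.12, chromosome 1, 40225080 to 40317257, plus strand) had 19.7, 18.3 and 30.6 CPM in the controls against 35.7, 31.7 and 24.1 CPM after fasting. Control 3 fell among the fasted libraries, and the log2 fold change was 0.42 (SE 0.25, 95% interval -0.15 to 0.98, edgeR adjusted p 0.379), and it was 0.24 without control 2. Il1r1 was at 5.41 times the background on average and at 3.39 to 4.89 times in the fasted libraries. By gene span, introns included, the gene model Gm38070, with 105 to 160 counts per library, lies over Il1r1 on the same strand. Antisense models overlap the spans of Il6ra and Il3ra.

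**Figure D2:**
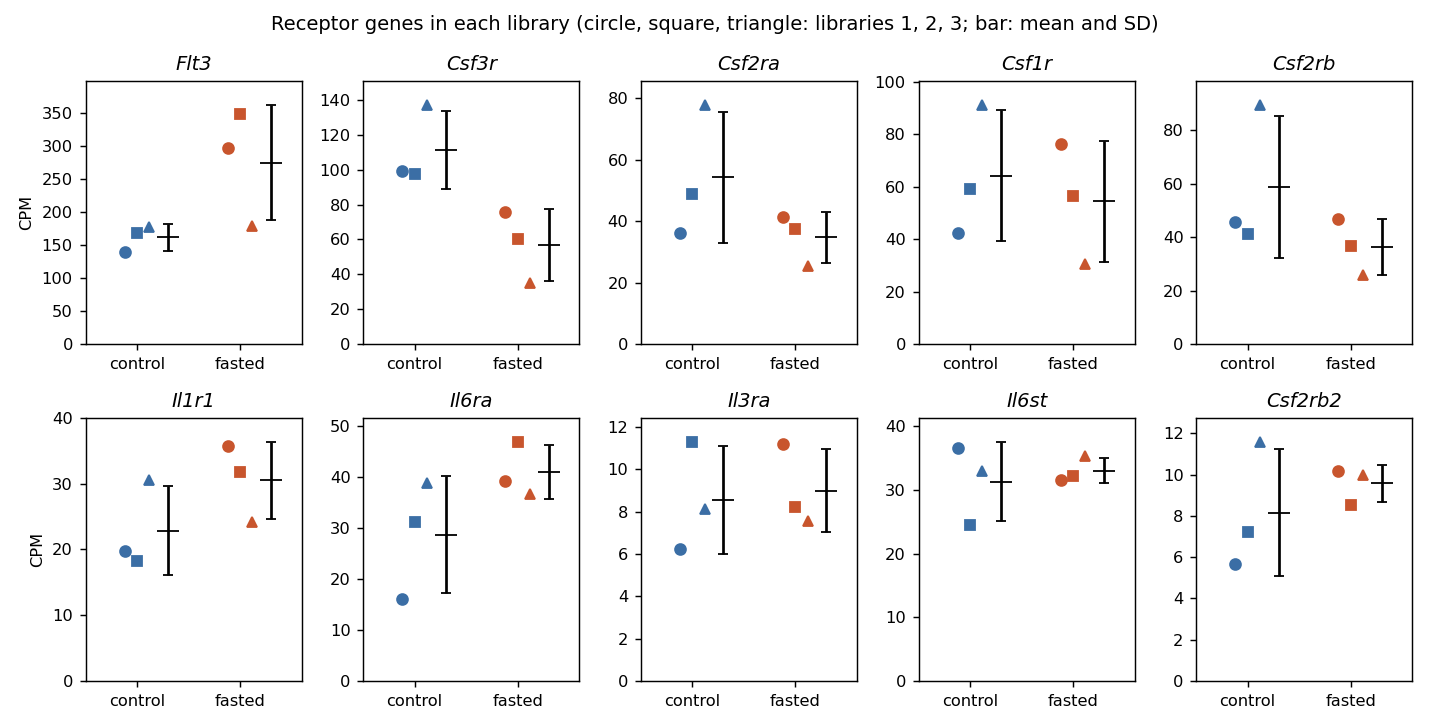
Level of the 10 receptor genes in each library (CPM, linear axes from 0), ordered by level per length. Points are libraries and bars are group means with SD (n = 3); Csf3r is lower in each fasted library than in any control library, Flt3 is higher in fasted 1 and 2, and the other receptors overlap between groups.

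No receptor passed an adjusted p under 0.05. In the edgeR fit 0 of the 7 tested receptors and 0 of all 10641 genes were called (0.0%), the smallest adjusted p of any gene being 0.0901. At an unadjusted p under 0.05 there were 2 of the 7 receptors, Csf3r lower and Flt3 higher, against 883 genes lower (8.3%) and 1228 genes higher (11.5%) of all tested. The groups did not overlap for the same 2 receptors, while this held for 1378 genes lower (12.9%) and 1531 genes higher (14.4%). For Flt3 this rested on 179 CPM in fasted 3 against 178 CPM in control 3. With the background taken off, these were 27.8 and 28.0 CPM per kilobase, so that its groups overlapped. The median log2 fold change was -0.24 over the 7 receptors and 0.02 over all genes tested, with 4 receptors below 0 and 3 above. Of the 3 receptors near the background, all overlapped between groups, while over the 36508 genes the groups did not overlap for 3.9% lower and 40.7% higher. DESeq2 on the same genes called Csf3r lower (adjusted p 0.023, with 1.65% of genes called lower and 3.07% higher), and gave Flt3 an adjusted p of 0.0622. Over the alternatives tried, the adjusted p of Csf3r ranged from 0.0184 to 0.348 and that of Flt3 from 0.0236 to 0.456.

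The scaling between libraries moved all receptors in the same direction. With edgeR's TMM factors (trimmed mean of M values) taken from all 36508 genes kept by the filter on low counts, most of which are below 5 times the background, the 10641 genes tested above had a median log2 fold change of -0.50, against 0.02 with factors from those genes. Under that scaling Csf3r had -1.45 (edgeR adjusted p 0.0189), Csf2rb -1.16 (0.0363) and Csf2ra -1.10 (0.0349), so that 3 receptors were called lower, with 3.82% of genes called lower and 1.15% higher, and 0 receptors were called higher. Flt3 then had 0.29 (edgeR adjusted p 0.456). When the same 36508 genes were tested with factors from the 10641, 1 receptor was called lower, Csf3r (edgeR adjusted p 0.0312), with 0.701% of genes, and 1 higher, Flt3 (0.0339), with 13.7% of genes. Relative to the shift of -0.50, the differences of these 4 genes have the sign they had above. A change of factors moves all genes by a similar amount, so this had to follow and is not further support.

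**Figure D3:**
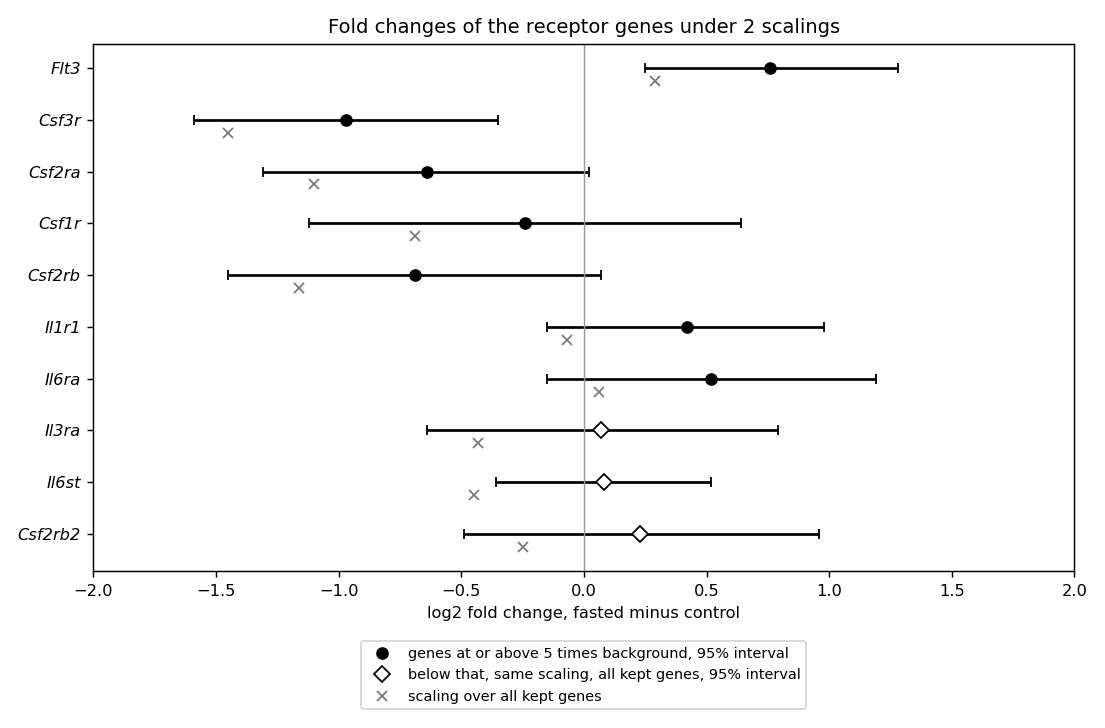
Log2 fold change, fasted minus control, of each receptor gene with its 95% interval (filled circles, genes at or above 5 times the background; open diamonds, Il3ra, Il6st and Csf2rb2 in the fit of all kept genes with the same scaling). Grey crosses give the fold change with scaling over all kept genes; they lie to the left of every circle and diamond, and only the intervals of Csf3r and Flt3 leave out 0.

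The proportion of Flt3 to Csf3r does not depend on scaling. It had to separate the groups, because each fasted library was lower in Csf3r and higher in Flt3 than any control. The ratio describes the levels and is not a further result. Per length, Flt3 divided by Csf3r was 0.823, 1.01 and 0.758 in the controls against 2.30, 3.39 and 2.99 after fasting, a mean of 0.864 ± 0.131 against 2.89 ± 0.549 (SD, n = 3 each). In control libraries both receptors had about equal levels, and in fasted libraries Flt3 was the higher one. Fasted 3, the lowest fasted library for both genes, had a ratio between those of fasted 1 and 2. Csf1r divided by Csf3r was 0.268, 0.38 and 0.416 in the controls against 0.633, 0.587 and 0.546 after fasting, also without overlap. Its divisor Csf3r separated the groups by itself, while Csf1r did not, so this ratio is not a further result either.

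Markers of other cell types differed between the libraries as well, and their part in the result was not tested. Of the 10 granulocyte-monocyte progenitor markers, 9 had a log2 fold change below 0, and the median was -2.06 against 0.02 over all genes. At an unadjusted p under 0.05 there were 6 lower, against 8.3% of all genes tested, and 0 had an edgeR adjusted p under 0.05. Ms4a3, a gene of granulocyte-monocyte progenitors, had 40.3, 200 and 435 CPM in the controls against 30.5, 18.5 and 8.59 CPM after fasting, and Elane, neutrophil elastase, 177, 1820 and 2640 CPM against 312, 98.8 and 56.3 CPM. Monocyte and macrophage markers summed to 451 to 1140 CPM in the controls against 319 to 565 CPM after fasting, with 5 of 10 above 5 times the background and the macrophage genes Adgre1, C1qa, C1qb and Mrc1 below it. Neutrophil markers summed to 295 to 2170 CPM in the controls against 818 to 1160 CPM after fasting. Mast cell and basophil markers had a median log2 fold change of -0.84, with 4 lower and 1, Prss34, higher of 5 tested. They summed to 325 to 492 CPM in the controls against 189 to 309 CPM after fasting without overlap. Gata2 was the largest part of this sum in every library, and its own groups overlapped (log2 fold change -0.30, edgeR adjusted p 0.518). Megakaryocyte markers summed to 444 to 578 CPM in the controls against 264 to 425 CPM after fasting, also without overlap and with 0 calls. Their median log2 fold change was -0.49, with 4 lower, Pf4 among them (-0.86, edgeR adjusted p 0.154), and 1, Gp9, higher of 5 tested. Itga2b was the largest part of this sum in every library, and its own groups overlapped.

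Dendritic and lymphoid markers stood beside Flt3, and their part in its difference was likewise not tested. The 6 dendritic markers summed to 239, 280 and 241 CPM in the controls against 413, 503 and 171 CPM after fasting, so that fasted 3 was the lowest of all. Of this sum H2-Ab1, an MHC class II gene also used by B cells, made up the most, with 136, 195 and 152 CPM in the controls against 323, 422 and 85.7 CPM after fasting, while Siglech, Itgax and Xcr1 lay below 5 times the background. Bst2, an interferon-induced gene high in plasmacytoid dendritic cells, went the other way, with 89.9, 64.3 and 67.6 CPM in the controls against 44.3, 50.8 and 45.6 CPM after fasting (log2 fold change -0.66, edgeR adjusted p 0.142). Cd209a was low, with 4.31, 3.85 and 4.65 CPM against 10.7, 8.80 and 6.26 CPM (log2 fold change 1.00, edgeR adjusted p 0.15). The 7 B and T lymphoid markers summed to less than the dendritic ones in every library. Their sums were 63.6, 112 and 96.7 CPM in the controls against 206, 144 and 96.1 CPM after fasting, with fasted 1 and 2 above all controls. Of the 4 tested lymphoid markers 0 had an edgeR adjusted p under 0.05, with 2 higher at an unadjusted p under 0.05 (11.5% of all genes tested). The 7 stem and multipotent progenitor markers summed to 298 to 415 CPM in the controls against 181 to 321 CPM after fasting. Cd48 and Meis1 made up most of this sum, while Hlf, Mecom, Procr and Slamf1 lay below 5 times the background. The sum thus says little of stem cells, and its relation to Flt3 was not tested.

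**Figure D4:**
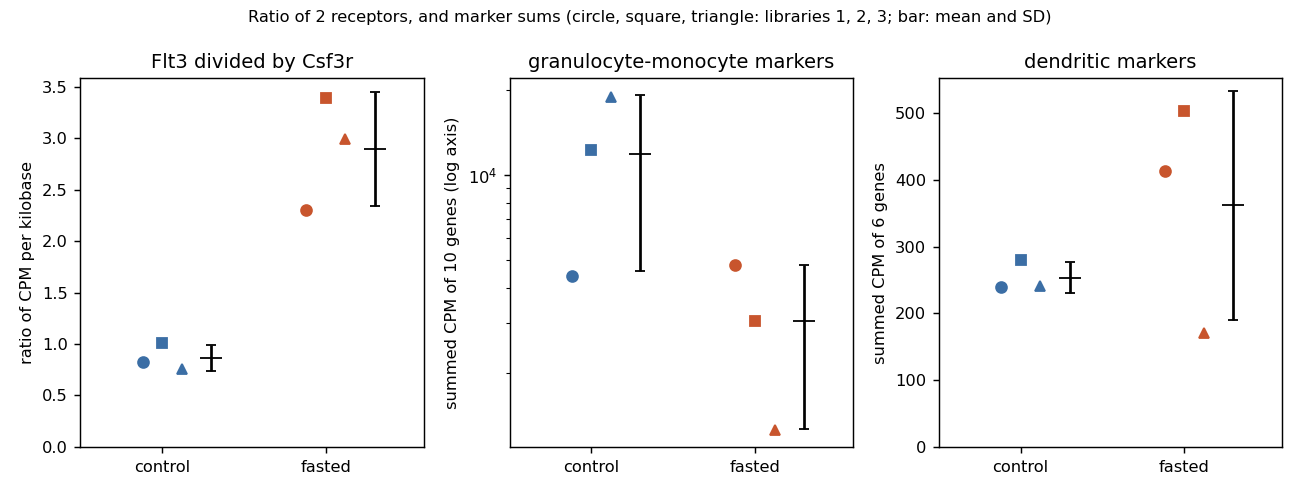
Flt3 divided by Csf3r per length (left), summed CPM of 10 granulocyte-monocyte progenitor markers (middle, log axis) and summed CPM of 6 dendritic markers (right) in each library, with group means and SD (n = 3). The ratio is 0.758 to 1.01 in the controls against 2.30 to 3.39 after fasting, and had to separate because Csf3r was lower and Flt3 higher. Both marker sums overlap between the groups.

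The sequence before the start of the 3 receptors with the highest levels per length is printed to show the region from which their transcription begins. It comes from RefSeq's promoter windows for GRCm38.p6, which held an entry for 8 of the 10 genes, Csf1r and Csf2rb being the others, and is cut before the first annotated exon. Capitals mark matches to the motifs named below. The Csf3r stretch is chr4:126024409-126024549 on the plus strand, that of Flt3 chr5:147400490-147400739 on the minus strand and that of Csf2ra chr19:61228430-61228668 on the minus strand.
Csf3r: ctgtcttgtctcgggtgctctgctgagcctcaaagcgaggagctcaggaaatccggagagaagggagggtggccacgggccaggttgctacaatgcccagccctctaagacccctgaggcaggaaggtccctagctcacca
Flt3: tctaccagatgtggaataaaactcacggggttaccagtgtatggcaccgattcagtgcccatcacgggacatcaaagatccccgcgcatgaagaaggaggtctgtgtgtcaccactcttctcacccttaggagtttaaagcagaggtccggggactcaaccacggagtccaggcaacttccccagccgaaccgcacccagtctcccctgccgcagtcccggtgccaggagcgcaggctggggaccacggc
Csf2ra: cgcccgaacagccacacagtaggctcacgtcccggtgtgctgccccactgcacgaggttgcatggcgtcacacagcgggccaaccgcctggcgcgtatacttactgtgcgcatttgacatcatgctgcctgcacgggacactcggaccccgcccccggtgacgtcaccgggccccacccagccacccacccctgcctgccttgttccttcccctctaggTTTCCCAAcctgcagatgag
On both strands of the full windows, 3 motifs were searched, GAGGAA (core of sites of PU.1, encoded by Spi1), TTNNGNAA (C/EBP) and TGTGGT (RUNX), which 28.3%, 40.7% and 16.8% of all 32851 windows hold. Csf3r had 1 match to GAGGAA, Csf2ra had 2 to GAGGAA and 1 to TTNNGNAA, and the matches to GAGGAA are not marked because they lie wholly or in part in an annotated exon, beyond the printed stretch. Flt3 had 0 matches to the 3 motifs. A match is a string of letters in a window, not a bound site.

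Myeloid transcription factors, among them some known to bind such motifs, were themselves measured. Spi1 had 126, 171 and 246 CPM in the controls against 187, 155 and 62.8 CPM after fasting, which is the order of the 6 libraries that Csf1r had. A link between these 2 genes was not tested, and Csf1r had no promoter window to search. Cebpa had 9.16, 12.7 and 19.5 CPM in the controls against 10.3, 9.44 and 3.69 CPM after fasting, and Cebpe, which acts late in granulocytes, 5.28, 23.2 and 35.1 CPM against 6.69, 2.61 and 3.62 CPM. Klf4, a factor of monocytes, had 10.1, 14.3 and 27.4 CPM in the controls against 42.2, 40.2 and 20.1 CPM after fasting. Irf8, the monocyte and dendritic factor, had a log2 fold change of 0.02, with 147 to 267 CPM in the controls against 113 to 287 CPM after fasting. Of the 9 myeloid factors 7 were tested, 5 lower and 2 higher, with a median of -0.26 and 0 calls at an edgeR adjusted p under 0.05 (smallest 0.167).

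The ligands of these receptors were near the background in the progenitors. Of Csf1, Il34, Csf2, Csf3, Il3, Il6, Flt3l, Il1a, Il1b and Il1rn, 0 of 10 reached 5 times the background, and Il6 was the highest at 4.55 times. Csf2, Csf3, Il3 and Il1a were below the background itself, at 0.534, 0.389, 0.291 and 0.922 times. Of 19 other cytokine receptors and co-receptors 13 were tested, 7 lower and 6 higher, with a median log2 fold change of -0.15 and 0 calls (smallest edgeR adjusted p 0.234). Il11ra1, the IL-11 receptor alpha chain, had 54.2, 29.9 and 67.2 CPM in the controls against 39.5, 18.6 and 14.5 CPM after fasting (log2 fold change -1.07, edgeR adjusted p 0.234). Kit, the stem cell factor receptor, had 368 to 688 CPM in the controls against 353 to 438 CPM after fasting. Epor, the erythropoietin receptor, had 44.2 to 106 CPM in the controls against 89.9 to 148 CPM after fasting. The lowest control Epor value, 44.2 CPM, was in control 3, where Csf1r, Csf2ra, Csf2rb and Csf3r were highest. The highest Epor value, 148 CPM, was in fasted 3, where those 4 receptors were lowest. Between these extremes the orders differed. Control 1 was above control 2 in Epor, with 106 against 88.1 CPM, and also in Csf3r and Csf2rb, but below it in Csf1r and Csf2ra. A relation of Epor to these receptors was not tested.

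Downstream of these receptors act JAK kinases, STAT factors and adaptors. Of 20 genes of JAK-STAT and adaptor signalling 16 were tested, 4 lower and 12 higher, with a median log2 fold change of 0.06 and 0 calls (smallest edgeR adjusted p 0.154). Jak2, the kinase bound to the beta chain, had 26.2, 31.5 and 29.5 CPM in the controls against 42.8, 46.9 and 38.6 CPM after fasting, a log2 fold change of 0.56 (edgeR adjusted p 0.154) in groups that do not overlap. Stat3, which acts downstream of Csf3r and Il6st, had 229, 161 and 236 CPM in the controls against 169, 170 and 132 CPM after fasting (log2 fold change -0.41, edgeR adjusted p 0.239), while Jak1 and Stat5a had log2 fold changes of 0.04 and 0.05. Gab2, an adaptor, had 23.2, 25.6 and 31.6 CPM in the controls against 38.6, 39.6 and 33.6 CPM after fasting (log2 fold change 0.48, edgeR adjusted p 0.209). Ptpn6, a phosphatase that dampens cytokine receptors, had 237 to 301 CPM in the controls against 191 to 232 CPM after fasting (log2 fold change -0.34, edgeR adjusted p 0.223).

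Feedback genes that cytokine signals induce gave a median of 0.23 on the log2 scale for the 7 tested of 10, with 2 lower, 5 higher and 0 calls (smallest edgeR adjusted p 0.17). Socs1, an inhibitor of JAK kinases, had 10.2, 9.15 and 11.2 CPM in the controls against 16.0, 13.6 and 21 CPM after fasting, at 5.88 times the background on average. Socs3, the inhibitor that binds Csf3r and Il6st, had 7.31, 18.3 and 19.7 CPM in the controls against 26.6, 22.8 and 23.5 CPM after fasting. For both, each fasted library was above each control library, as for 14.4% of all genes tested, and neither passed the test. Of the 10 genes of IL-1 signalling 9 were tested, 4 lower and 5 higher, with a median of 0.08 and 0 calls (smallest edgeR adjusted p 0.159). Irak3, a brake on this pathway, had 30.4, 31.5 and 36.6 CPM in the controls against 25.1, 16.1 and 11.2 CPM after fasting, and Irak2, a kinase of the same family, had 17.0, 15.5 and 19.8 CPM against 23.3, 31.5 and 25.3 CPM. Over all 78 genes of these lists 52 were tested, with 5 lower and 5 higher at an unadjusted p under 0.05, a median of 0.04 and 0 calls. Over all genes tested 8.3% were lower and 11.5% higher at that p, so these lists were near the background.

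For the 7 receptors at or above 5 times the background, the genes most like each over the 6 libraries were found among 8278 named genes, by the root mean square difference of centred log2 CPM. For Csf3r these were Rab31, Lcp1 and Arpc1b, which differed from it by 0.0756, 0.0837 and 0.0866 log2 units. Lcp1 encodes an actin-bundling protein of white blood cells and Arpc1b a subunit of the Arp2/3 actin complex. For Csf2ra the nearest were Alox5ap, of leukotriene synthesis, Milr1, a mast cell receptor, and Msantd3, at 0.0979, 0.102 and 0.111 log2 units. For Csf1r they were Ncf1, a subunit of the phagocyte oxidase, Unc93b1 and B3gnt5, at 0.141, 0.142 and 0.146. The nearest to Flt3 were Sh2b3, the adaptor Lnk, Ufsp1 and Zbtb17, at 0.159, 0.162 and 0.164. None of these 7 receptors was among the 3 nearest genes of another.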

How the data were processed

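Polyadenylated RNA of sorted progenitors was sequenced in 6 libraries, 3 control and 3 fasted. The authors deposited raw counts per gene and exonic lengths. HISAT2 2.2.1, featureCounts 2.0.1 and GRCm38 are named in the submitters' processing notes; annotation release, strand setting and handling of shared reads are not given in the sources used here. Of 55487 identifiers 55227 matched GENCODE M21 without version (54435 with it). Groups came from the labels.

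Genes kept by filterByExpr (36508) with a mean count at or above 5 times the background rate times length (10641) were scaled by TMM and tested with edgeR 4.0.16 (R 4.3.3; estimateDisp, glmQLFit, robust; Benjamini-Hochberg, 0.05). CPM uses these factors. Receptors below that minimum were fitted with all 36508 genes and the same factors. The SE is the size of the log2 fold change over the square root of F. The receptors, the lists, the background measure and the scaling were chosen with earlier results of these data known. All 10 receptors are described; from each list up to 4 genes of lowest p or of highest level are named. Likeness used log2(CPM + 0.5). The test was tried on simulated counts. Alternatives were DESeq2 1.42.0, limma-voom (limma 3.58.1), other scalings, filters and thresholds, background subtraction, a replicate block and leaving out each library. The labels do not say whether replicate numbers pair the libraries, and the edgeR test did not use them as pairs.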

Additional observations from a re-analysis of the deposited data

How the results depend on the processing

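The log2 fold changes were recomputed under 191 pairs of receptor and alternative, of which 165 kept their sign and side of the threshold, 11 kept the sign and passed it, and 15 changed sign. The cause of each change was not tested. Against 0 genes called in edgeR, 1813 were called with scaling over all kept genes, 5244 over all kept genes with the factors used here, 5916 with no filter on low counts, 1624 with a background minimum of 2 times, 503 with DESeq2, and 2 at an adjusted p under 0.1. In the first 5 of these the receptors called were 3, 2, 2, 3 and 1, and the pathway list genes called were 8, 8, 8, 6 and 2, in that order. Leaving out each library in turn gave 0 to 3 genes, with 3 without control 1 and 3 without control 3.

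Csf3r, Csf2ra, Csf2rb, Flt3 and Il6ra kept their sign under every alternative run, Csf3r from -1.45 to -0.71 and Flt3 from 0.29 to 1.00. With scaling over all kept genes, with a background minimum of 2 times, and with background subtracted, Csf2rb2 turned to -0.25, -0.09 and -0.32, Il3ra to -0.43, -0.27 and -0.21, and Il6st to -0.45, -0.27 and -0.22. Il1r1 turned to -0.07 with the first of these. Leaving out each library in turn, Csf1r ranged from -0.56 to 0.08, Csf2ra from -0.86 to -0.31, Csf2rb from -0.92 to -0.28, Csf3r from -1.22 to -0.71, Flt3 from 0.53 to 1.00, Il6ra from 0.23 to 0.77, Il1r1 from 0.24 to 0.66, Csf2rb2 from 0.03 to 0.55, Il3ra from -0.12 to 0.29 and Il6st from -0.11 to 0.21. Csf2ra, Csf2rb and Csf3r were nearest to 0 without control 3, without control 3 and without fasted 3. The difference in the Csf2rb2 share ranged from 7.78 to 13.9 percentage points over the same omissions.

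Control and fasted libraries share replicate numbers, and same-numbered libraries had correlations of -0.17, 0.14 and -0.329 in their deviations from the group means. Same-numbered libraries were thus not clearly alike. With 3 libraries per group this cannot tell whether they were prepared together, and the labels do not say. With a replicate block 0 genes and 0 receptors were called in edgeR (1551 genes at an unadjusted p under 0.05). Depth and the higher background of the fasted libraries limit what can be said of Il3ra, Il6st and Csf2rb2. The same holds for Il6ra and Il1r1, which were just above 5 times the background on average. It also holds in part for Csf2rb, at 9.2 times on average but at 5.2, 4.94 and 3.19 times in fasted 1, 2 and 3. With background subtracted, the log2 fold change of Csf2rb was -0.88. Csf1r was at 4.72 times the background in fasted 3.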
